A study of Mus musculus with 4 samples.

Results

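Protein-coding genes of glycolysis and of the hypoxia response were followed in Mettl4 knockout and wild type neural stem cells. The 40 genes were taken by symbol from a named list, among 55414 gene identifiers in the files, and all of them were found. The list was chosen with earlier results of these data known. Shares of members set against all genes therefore describe this list and are not independent support. They fall into 24 genes of glucose uptake, glycolysis and pyruvate handling and 16 genes of the cellular answer to low oxygen. Counts of RNA sequencing reads per gene were available for 2 libraries of Mettl4 knockout and 2 libraries of wild type primary mouse neural stem cells. Both groups came from the cortex of E14.5 embryos and were amplified as floating neurospheres in medium with 20 ng/ml EGF and 10 ng/ml bFGF under air with added CO2. The cells were then plated as an adherent monolayer, and no low-oxygen treatment is labelled for any library. The labels do not say how Mettl4 was disrupted, nor whether libraries of a group came from separate embryos or cultures, so the p-values reflect how much these libraries varied, and part of that variation may be technical.

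Glycolysis splits glucose into pyruvate in a chain of cytosolic reactions, and lactate dehydrogenase turns pyruvate into lactate, which leaves the cell through monocarboxylate transporters. When oxygen is scarce, the prolyl hydroxylases that mark HIF alpha subunits for destruction slow down, HIF accumulates, and the genes it binds are transcribed. These targets include most glycolytic enzymes, the glucose transporter Slc2a1, the mitophagy receptor Bnip3 and the kinase Pdk1, which inhibits pyruvate dehydrogenase. Neural stem cells of the embryonic cortex are known for a strongly glycolytic metabolism.

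Mettl4, which encodes an adenosine methyltransferase, was measured at 15.6 and 17.6 CPM in the knockout libraries, against 63.8 and 66.6 CPM in the wild type libraries. CPM are read counts per library size, scaled with TMM factors. Its log2 fold change, knockout over wild type, was -1.97 ± 0.17 (SE; edgeR quasi-likelihood test, adjusted p = 0.0051). Mettl4 RNA was therefore lower in both libraries labelled knockout, and it was the 1 gene called among 19912 tested. Library totals were 18150389 and 19310668 counts in the knockout and 12812064 and 16883734 counts in the wild type. Reads of mitochondrial genes made up 1.46% and 2.12% of counts in knockout replicates 1 and 2, against 1.26% and 1.91% in wild type replicates 1 and 2. Wild type replicate 1 held 626 counts of the Y-linked gene Ddx3y, where the other 3 libraries held 0. The X-linked RNA Xist was at 286 CPM in that library, against 3335 CPM in wild type replicate 2. In the knockout libraries Xist was at 3475 and 3488 CPM. The libraries thus did not all share the same sex composition, and sex was not balanced between the groups. The 10 markers of neural stem cells and radial glia were all detected above the low-count filter. They summed to 5449 and 6396 CPM in the knockout and to 5589 and 6004 CPM in the wild type. Fabp7, a large part of each sum, was at 1830 and 2985 CPM in the knockout and at 1635 and 2118 CPM in the wild type. Of the 10 markers, 4 had log2 fold changes above zero and 6 below.

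No member was called. Of the 40 genes, 38 passed the low-count filter, and 0 of these had an edgeR adjusted p under 0.05, against 0.00502% of all genes tested. The smallest adjusted p of a member was 0.9999. At an unadjusted p under 0.05 stood 6 members, Hk2, Pfkl, Pdk1, Slc16a3, Egln3 and Bnip3, all 6 higher in the knockout, where 2.77% of all genes tested lay under that p with 1.15% higher and 1.62% lower. A positive log2 fold change was found in 25 of the 38 members, against 49.7% of all genes tested. The median log2 fold change was 0.06 over the members and -0.0013 over all genes tested. Car9 and Ndrg1 fell under the filter and were not tested.

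**Figure D1:**
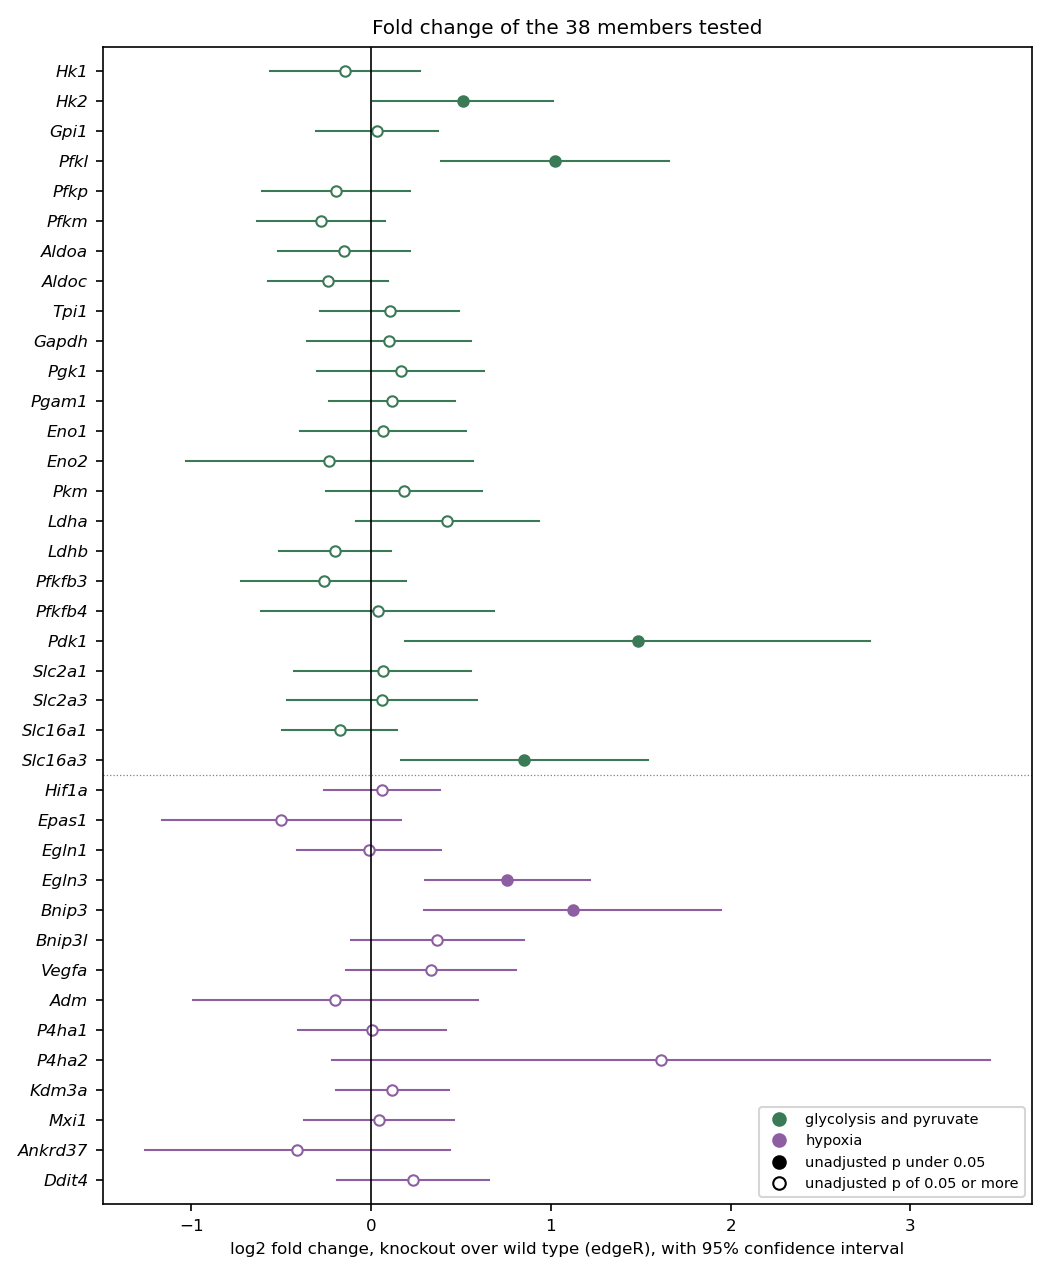
Log2 fold change of the 38 tested members, Mettl4 knockout over wild type, from the edgeR fit over all genes. Points are estimates, horizontal bars are 95% confidence intervals, colour separates glycolysis from hypoxia genes, and filled points mark the 6 members with an unadjusted p under 0.05. Those 6 lie between 0.51 for Hk2 and 1.48 for Pdk1, and the intervals of the other members span zero.

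Promoter sequences are shown for the 6 members with the largest shift of knockout replicate 2 above the wild type mean, because HIF binds a short core sequence, and the letters upstream of the start show where that core is found. They are RefSeq sequences of build GRCm38.p6, 250 bases that end just before the transcription start, written 5′ to 3′ on the gene's strand. The table lists a further start downstream for Pdk1 and for Ldha, and the upstream start is shown. Capitals mark the core ACGTG or GCGTG, or its reverse complement CACGT or CACGC, with overlapping matches joined. Pdk1 lies at chr2:71872974-71873223 on the plus strand, Bnip3 at chr7:138909507-138909756 on the minus strand and Pfkl at chr10:78009808-78010057 on the minus strand. Slc16a3 lies at chr11:120948817-120949066 on the plus strand, Ldha at chr7:46845554-46845803 on the plus strand and Egln3 at chr12:54203875-54204124 on the minus strand.
Pdk1: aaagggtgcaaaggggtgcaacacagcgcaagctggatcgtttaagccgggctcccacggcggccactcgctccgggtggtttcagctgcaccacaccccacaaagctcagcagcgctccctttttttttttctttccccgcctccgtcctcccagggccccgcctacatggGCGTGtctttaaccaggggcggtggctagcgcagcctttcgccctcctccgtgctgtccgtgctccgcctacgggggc
Bnip3: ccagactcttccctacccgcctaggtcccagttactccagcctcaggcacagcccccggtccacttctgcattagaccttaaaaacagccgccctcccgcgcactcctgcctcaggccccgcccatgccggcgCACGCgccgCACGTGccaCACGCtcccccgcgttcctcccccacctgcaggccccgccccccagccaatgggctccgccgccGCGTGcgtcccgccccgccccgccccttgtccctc
Pfkl: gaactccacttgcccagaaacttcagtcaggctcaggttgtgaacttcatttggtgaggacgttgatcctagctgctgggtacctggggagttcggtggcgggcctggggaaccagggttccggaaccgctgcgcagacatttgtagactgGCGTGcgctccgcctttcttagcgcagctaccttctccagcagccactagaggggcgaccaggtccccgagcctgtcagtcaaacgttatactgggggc
Slc16a3: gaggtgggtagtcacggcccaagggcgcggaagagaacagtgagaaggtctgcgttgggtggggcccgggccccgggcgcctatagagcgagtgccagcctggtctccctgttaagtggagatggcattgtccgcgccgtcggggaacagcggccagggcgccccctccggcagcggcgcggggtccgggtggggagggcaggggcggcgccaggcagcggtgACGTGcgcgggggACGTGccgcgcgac
Ldha: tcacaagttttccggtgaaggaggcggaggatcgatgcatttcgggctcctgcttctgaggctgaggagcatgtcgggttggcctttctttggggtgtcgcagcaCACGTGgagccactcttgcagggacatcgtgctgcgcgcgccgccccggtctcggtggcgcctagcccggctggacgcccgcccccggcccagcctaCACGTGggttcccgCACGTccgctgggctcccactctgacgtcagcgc
Egln3: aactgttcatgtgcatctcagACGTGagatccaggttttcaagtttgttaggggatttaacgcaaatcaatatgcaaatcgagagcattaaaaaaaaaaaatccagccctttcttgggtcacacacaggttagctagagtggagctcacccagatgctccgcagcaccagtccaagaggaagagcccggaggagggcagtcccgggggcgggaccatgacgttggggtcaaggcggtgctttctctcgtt
Bnip3 held 4 matches in this window, whose first bases lay 117, 108, 99 and 35 bases before the start. Ldha held 3 matches, 2 of them the palindrome CACGTG, at 145, 48 and 34 bases. Slc16a3 held 2 matches close to the start, at 27 and 14 bases. Pdk1, Pfkl and Egln3 held 1 match each, at 78, 99 and 229 bases. The windows of the downstream starts held 0 matches for Pdk1 and 1 match for Ldha. A match describes letters only, and binding was not measured.

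The core is common among promoters. The RefSeq table held 36 of the 40 members, and 33 of them (91.7%) had at least 1 match in the 250 bases of some start. Among the 11412 tested genes in the same table, 6802 (59.6%) had one. A gene with more listed starts had more windows to match in, and the part of this in the shares was not tested. By class, 20 of 23 glycolysis genes (87.0%) and 13 of 13 hypoxia genes (100.0%) had a match. The hypoxia members were listed for their part in the answer to low oxygen, so their share is a description only. With ACGTG alone, the more usual form of the core, 22 of 36 members (61.1%) had a match, against 24.3% of the tested genes. The most GC-rich start of each gene had a median GC content of 65.2% over the members, against 60.8% over the tested genes. The part of base composition in the higher share was not tested.

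The glycolytic enzymes as a class differed little between the groups. All 17 were tested, with a log2 fold change above zero in 10 and below zero in 7, and a median of 0.07. Per kilobase of the principal transcript, Gapdh, which oxidises glyceraldehyde phosphate, was the most abundant member, at 711 CPM per kb in the knockout and 663 CPM per kb in the wild type. It was followed by enolase Eno1, at 561 CPM per kb in the knockout and 536 CPM per kb in the wild type. Pgk1, the first enzyme to return ATP, stood at 400 CPM per kb in the knockout and 357 CPM per kb in the wild type. Pkm, which makes pyruvate, stood at 341 CPM per kb in the knockout and 300 CPM per kb in the wild type. Ldha stood at 364 CPM per kb in the knockout and 271 CPM per kb in the wild type. The order of Gapdh over Eno1 over the other enzymes was the same in both group means. Ldha stood below Pkm in knockout replicate 1, at 278 against 308 CPM per kb, as in both wild type libraries, and above it only in knockout replicate 2, at 450 against 373 CPM per kb.

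**Figure D2:**
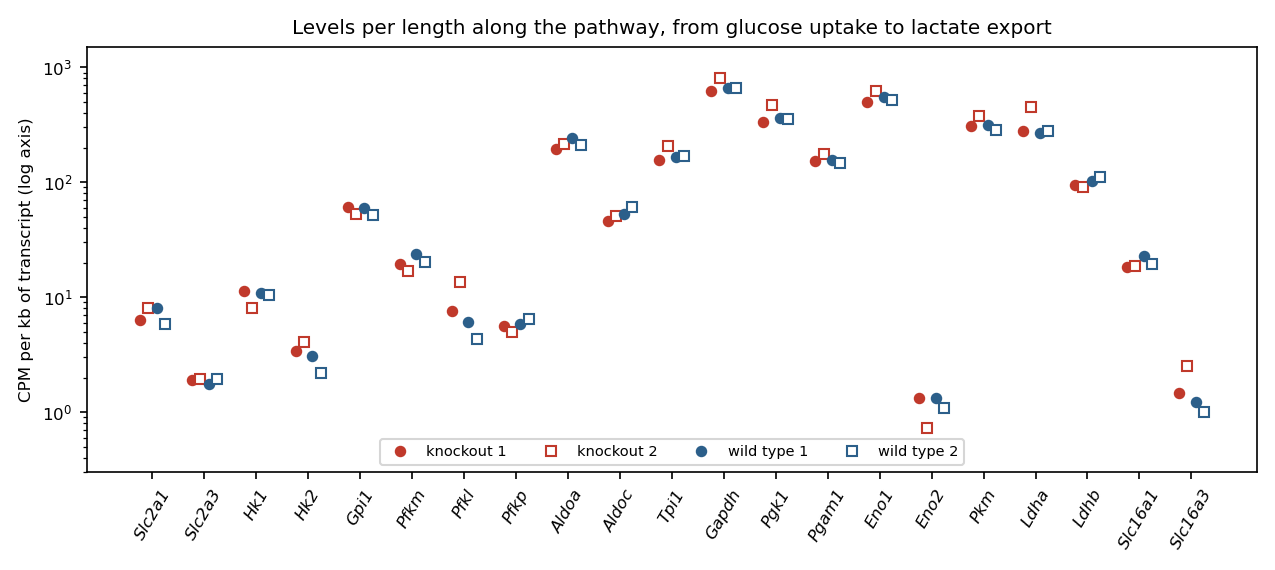
CPM per kilobase of principal transcript on a log axis for the glycolytic enzymes and the transporters, in pathway order from glucose uptake to lactate export. Each gene has 1 point per library, the knockout libraries left of the wild type libraries. Gapdh averaged 711 CPM per kb in the knockout and 663 CPM per kb in the wild type, and Slc16a3, near the bottom, 2.00 CPM per kb in the knockout and 1.11 CPM per kb in the wild type.

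Gapdh was at 882 and 1137 CPM in the knockout libraries, against 935 and 946 CPM in the wild type libraries. The groups overlapped, since knockout replicate 1 was the lowest and knockout replicate 2 the highest of the 4 libraries. Its log2 fold change was 0.10 ± 0.21 (SE), with a 95% interval between -0.35 and 0.56. Counts at near-identical copies of Gapdh, most of them processed pseudogenes, amounted to 46.3% and 47.1% of the Gapdh count in the knockout and 51.1% and 47.0% in the wild type, so reads of this gene were shared out in a way the sources do not state. Pkm was at 750 and 908 CPM in the knockout libraries, against 771 and 688 CPM in the wild type libraries, again with knockout replicate 2 highest and the groups overlapping. Gene counts do not separate the M1 and M2 transcripts of Pkm, which differ by an alternative exon.

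The enzymes with the smallest p were Pfkl and Hk2, both of early, energy-spending steps. Pfkl, the liver-type subunit of phosphofructokinase, which commits sugar to glycolysis, was at 28.0 and 50.9 CPM in the knockout libraries, against 22.6 and 16.3 CPM in the wild type libraries. Both knockout libraries were above both wild type libraries, and knockout replicate 2 was far above the rest. The log2 fold change of Pfkl was 1.02 ± 0.28 (SE), with a 95% interval between 0.39 and 1.66 (edgeR, unadjusted p = 0.0049). Hk2, the inducible hexokinase that traps glucose as its phosphate, was at 18.9 and 22.4 CPM in the knockout libraries, against 16.9 and 12.2 CPM in the wild type libraries. The Hk2 groups did not overlap, but wild type replicate 1 came close to knockout replicate 1, and the log2 fold change was 0.51 ± 0.23 (SE; edgeR, unadjusted p = 0.047). Ldha, which reduces pyruvate to lactate, was at 491 and 794 CPM in the knockout libraries, against 469 and 489 CPM in the wild type libraries. Knockout replicate 1 lay just above wild type replicate 2, so that nearly the whole Ldha difference came from knockout replicate 2, and the log2 fold change was 0.43 ± 0.23 (SE; edgeR, unadjusted p = 0.093).

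The remaining enzymes had log2 fold changes between -0.28 for Pfkm and 0.18 for Pkm, and none had an unadjusted p under 0.05. Pfkm, the muscle-type phosphofructokinase subunit, was at 56.1 and 48.4 CPM in the knockout libraries, against 68.6 and 58.1 CPM in the wild type libraries. Pfkp, the platelet-type subunit, Aldoc, the brain-type aldolase, and Ldhb, the lactate dehydrogenase subunit of oxidative tissue, were likewise lower in both knockout libraries than in both wild type libraries, with log2 fold changes of -0.19, -0.24 and -0.20. Pfkp had 445 and 378 counts in the knockout and 318 and 435 in the wild type. It shares 748 bases with Pitrm1 on the opposite strand, and strand handling is not given. Pitrm1 had 1546 and 1527 counts in the knockout and 1078 and 1378 in the wild type. Pfkl, Hk2 and Ldha were the 3 enzymes with both knockout libraries higher. Of the 38 members, 9 had both knockout libraries above both wild type libraries and 7 had both below, where 12.5% and 14.9% of all genes tested did. Hk1, Gpi1, Aldoa, Tpi1, Pgk1, Pgam1, Eno1 and Eno2 had overlapping groups.

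**Figure D3:**
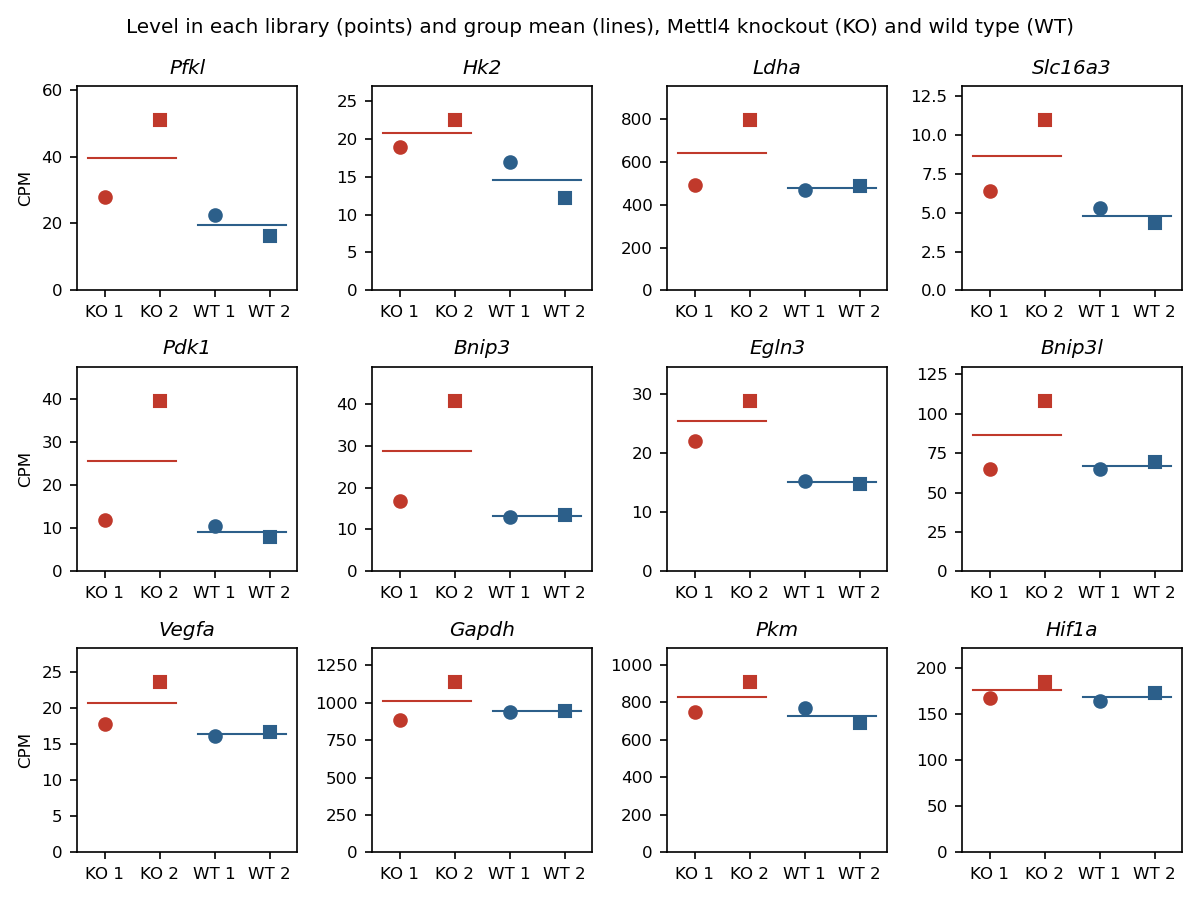
CPM of 12 members in each of the 4 libraries, Mettl4 knockout (KO) left of wild type (WT), each panel on its own axis from 0. Points are libraries and lines are group means. Pdk1, Bnip3 and Pfkl stand at 39.6, 40.6 and 50.9 CPM in knockout replicate 2, while Hif1a lies between 164 and 185 CPM in all 4 libraries.

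Among the regulators, Pdk1 had the largest log2 fold change. Pdk1, which phosphorylates and switches off pyruvate dehydrogenase, was at 11.9 and 39.6 CPM in the knockout libraries, against 10.5 and 7.99 CPM in the wild type libraries. Those levels rest on 226 and 724 counts in the knockout and on 139 and 131 counts in the wild type. Knockout replicate 1 lay just above the wild type libraries, and knockout replicate 2 was 3.32 times knockout replicate 1. The log2 fold change of Pdk1 was 1.48 ± 0.54 (SE), with a 95% interval between 0.19 and 2.78 (edgeR, unadjusted p = 0.031). Pfkfb3, whose product makes the activator of phosphofructokinase, was at 37.9 and 25.9 CPM in the knockout libraries, against 40.9 and 35.7 CPM in the wild type libraries. Its groups overlapped, with knockout replicate 2 the lowest. Pfkfb4, a related bifunctional enzyme, was at 4.48 and 3.67 CPM in the knockout and 4.38 and 3.597 CPM in the wild type.

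Among the transporters, Slc16a3 stood apart. Slc16a3, the lactate exporter MCT4, was at 6.38 and 10.9 CPM in the knockout libraries, against 5.28 and 4.33 CPM in the wild type libraries, and the groups did not overlap. Its log2 fold change was 0.85 ± 0.31 (SE), with a 95% interval between 0.17 and 1.54 (edgeR, unadjusted p = 0.020). Slc16a1, the more widely expressed lactate transporter MCT1, was at 81.8 and 83.3 CPM in the knockout libraries, against 100.0 and 86.4 CPM in the wild type libraries, lower in both knockout libraries and with a log2 fold change of -0.17 ± 0.14 (SE). Slc2a1, the glucose transporter GLUT1, was at 20.6 and 26.4 CPM in the knockout libraries, against 26.1 and 18.9 CPM in the wild type libraries. The Slc2a1 groups overlapped, and the 95% interval of its log2 fold change was between -0.43 and 0.56. Slc2a3, the glucose transporter known from neurons, was within 6.94 and 7.72 CPM in all 4 libraries.

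The choice between related genes was read as the log2 ratio of their CPM within each library, over 14 pairs. The ratio was higher in both knockout libraries than in both wild type libraries for 6 pairs and lower for 3 pairs. With 2 libraries against 2, the exact two-sided permutation test cannot go below p = 0.333, and all 9 of these pairs had that p. A ratio with no group difference would separate the groups in this way with the same probability, 0.333. Pfkl, Pfkm and Pfkp recur among the pairs, so the pairs are not independent. No share over pairs of other genes was computed. The Pfkl to Pfkm ratio was -1.001 and 0.07 on the log2 scale in the knockout libraries, against -1.60 and -1.84 in the wild type libraries. The Ldha to Ldhb ratio was 2.00 and 2.73 in the knockout, against 1.82 and 1.75 in the wild type. The Hk2 to Hk1 ratio was -1.19 and -0.48 in the knockout, against -1.31 and -1.73 in the wild type. The Slc16a1 to Slc16a3 ratio was 3.68 and 2.93 in the knockout, against 4.24 and 4.32 in the wild type. In each of these 4 pairs knockout replicate 1 lay nearer to the wild type libraries than knockout replicate 2 did. The ratios of Aldoa to Aldoc, Pfkp to Pfkm, Eno1 to Eno2 and Slc2a1 to Slc2a3 overlapped between the groups, with differences of the mean log2 ratio of 0.09, 0.08, 0.35 and 0.01.

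Per length, the 3 phosphofructokinase genes were shared out unevenly. Pfkl made up 23.0% and 38.5% of their summed CPM per kb in the knockout libraries, against 17.01% and 14.1% in the wild type libraries. Pfkm made up 59.7% and 47.4% in the knockout, against 66.8% and 65.2% in the wild type, and remained the largest of the 3 in every library. Hk2 made up 23.4% and 33.4% of the Hk1 and Hk2 sum in the knockout, against 22.0% and 17.4% in the wild type. Ldha made up 74.7% and 83.1% of the lactate dehydrogenase sum in the knockout, against 72.2% and 71.3% in the wild type. Eno1 made up between 99.7% and 99.9% of enolase in all 4 libraries, and Eno2, the neuronal enolase, the small rest.

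**Figure D4:**
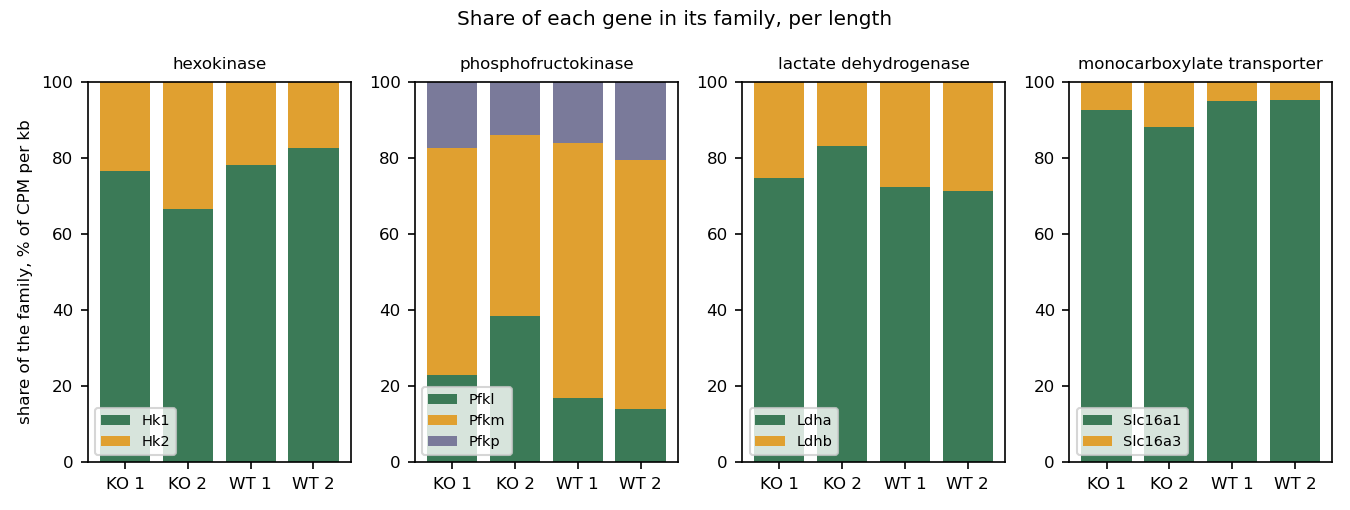
Share of each gene in its family, as a percentage of the family's CPM per kilobase of principal transcript, in knockout libraries (left) and wild type libraries (right). Stacked bars add to 100% in each library. Pfkl reaches 38.5% of phosphofructokinase in knockout replicate 2 and lies between 14.1% and 23.0% in the other 3 libraries.

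The hypoxia members are described from the factors to their targets. Of 16 members, 14 were tested, with a log2 fold change above zero in 10 and below zero in 4, and a median of 0.09. Hif1a, the oxygen-regulated subunit of HIF-1, was at 168 and 185 CPM in the knockout libraries, against 164 and 174 CPM in the wild type libraries. The Hif1a groups overlapped, and the 95% interval of the log2 fold change was between -0.26 and 0.38. HIF alpha subunits are controlled mainly at the protein, which was not measured. Epas1, which encodes HIF-2 alpha, was at 6.86 and 4.05 CPM in the knockout libraries, against 8.38 and 7.07 CPM in the wild type libraries. Both knockout libraries were lower, knockout replicate 1 by little, and the log2 fold change was -0.50 ± 0.30 (SE; edgeR, unadjusted p = 0.13).

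Of the oxygen sensors, Egln3 had the smaller p, and neither was called. Egln3, a HIF prolyl hydroxylase that HIF itself induces, was at 22.1 and 28.8 CPM in the knockout libraries, against 15.3 and 14.8 CPM in the wild type libraries. Both knockout libraries were clearly above the wild type libraries, and the log2 fold change of 0.76 ± 0.21 (SE), with a 95% interval between 0.30 and 1.22, had the smallest p among the members (edgeR, unadjusted p = 0.0042). Egln1, the main HIF prolyl hydroxylase, was at 83.9 and 66.1 CPM in the knockout libraries, against 86.3 and 65.0 CPM in the wild type libraries. In Egln1 the libraries with the same replicate number were alike, and the 95% interval of its log2 fold change was between -0.41 and 0.39.

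The mitophagy receptors were both highest in knockout replicate 2. Bnip3, which tethers mitochondria to autophagosomes, was at 16.9 and 40.6 CPM in the knockout libraries, against 12.98 and 13.4 CPM in the wild type libraries. Those levels rest on 320 and 742 counts in the knockout and on 172 and 220 counts in the wild type. The wild type libraries lay close together, knockout replicate 1 was somewhat higher, and knockout replicate 2 was 2.41 times knockout replicate 1. The log2 fold change of Bnip3 was 1.12 ± 0.36 (SE; edgeR, unadjusted p = 0.014). Bnip3 shares 504 bases with Gm45507 on the opposite strand, which had 17 and 63 counts in the knockout and 12 and 23 in the wild type, and how strand was counted is not given in the sources. Bnip3l, a receptor of the same kind, was at 64.9 and 108 CPM in the knockout libraries, against 64.7 and 69.2 CPM in the wild type libraries. Here knockout replicate 1 lay within the wild type libraries, and only knockout replicate 2 was above them.

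Of the secreted factors, Vegfa, the vascular growth factor, was at 17.8 and 23.6 CPM in the knockout libraries, against 16.2 and 16.7 CPM in the wild type libraries. Both knockout libraries were higher, by a log2 fold change of 0.33 ± 0.21 (SE; edgeR, unadjusted p = 0.15). Adm, which encodes the vasodilator peptide adrenomedullin, was at 7.91 and 3.995 CPM in the knockout libraries, against 8.38 and 5.37 CPM in the wild type libraries, with knockout replicate 2 the lowest. Ddit4, an inhibitor of mTORC1 signalling, was at 31.9 and 39.2 CPM in the knockout libraries, against 33.7 and 26.9 CPM in the wild type libraries, and its groups overlapped. Ankrd37 was at 1.48 and 2.85 CPM in the knockout libraries, against 2.87 and 2.87 CPM in the wild type libraries. Only knockout replicate 1 was thus clearly lower. Ankrd37 had 28 and 52 counts in the knockout and 38 and 47 in the wild type. It shares 349 bases with Lrp2bp on the opposite strand, and strand handling is not given. Lrp2bp had 349 and 279 counts in the knockout and 194 and 277 in the wild type.

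The other hypoxia members were level or too low to read. P4ha1, a subunit of the enzyme that hydroxylates collagen prolines, was at 35.2 and 48.7 CPM in the knockout libraries, against 42.3 and 41.3 CPM in the wild type libraries, with overlapping groups. P4ha2, a related subunit, had only 12 and 12 counts in the knockout libraries and 5 and 1 in the wild type libraries. In CPM these were 0.633 and 0.657 in the knockout, against 0.377 and 0.061 in the wild type. Its log2 fold change of 1.61 ± 0.82 (SE; edgeR, unadjusted p = 0.078) was the largest among the tested members, but rests on these few counts. Kdm3a, a histone H3 lysine demethylase, and Mxi1, an antagonist of Myc, had log2 fold changes of 0.12 and 0.05. Car9, the membrane carbonic anhydrase often read as a hypoxia marker, had 1 and 2 counts in the knockout libraries and 0 and 2 in the wild type libraries. A count of 0 in wild type replicate 1 allows up to 3 counts from counting error alone, or 0.234 CPM when scaled to the library total without a TMM factor, so Car9 was not detectable above that level. Ndrg1 had 10 and 11 counts in the knockout libraries and 6 and 5 in the wild type libraries.

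Set against the wild type mean library by library, the members did not shift alike in the knockout libraries. The median shift over the 38 tested members, in log2(CPM + 1), was 0.02 in knockout replicate 1 and 0.21 in knockout replicate 2. Over all genes tested it was 0.01 in knockout replicate 1 and -0.02 in knockout replicate 2. The glycolytic enzymes had median shifts of -0.09 and 0.21 in knockout replicates 1 and 2, and the hypoxia members 0.05 and 0.21. Pdk1 was shifted by 0.35 in knockout replicate 1 and by 2.00 in knockout replicate 2, Bnip3 by 0.33 and 1.55, and Pfkl by 0.52 and 1.36. Egln3, at 0.52 and 0.89, and Hk2, at 0.38 and 0.61, were the closest to equal shifts among the 6 members with an unadjusted p under 0.05. Knockout replicate 2 exceeded knockout replicate 1 in 27 of 38 members (71.1%), against 46.8% of all genes tested. It was the highest of the 4 libraries in 23 members, where 28.7% of all genes tested had their highest value there. Knockout replicate 1 was highest in 3 members, wild type replicate 1 in 9 and wild type replicate 2 in 3, where 22.1%, 27.8% and 21.4% of all genes tested were.

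**Figure D5:**
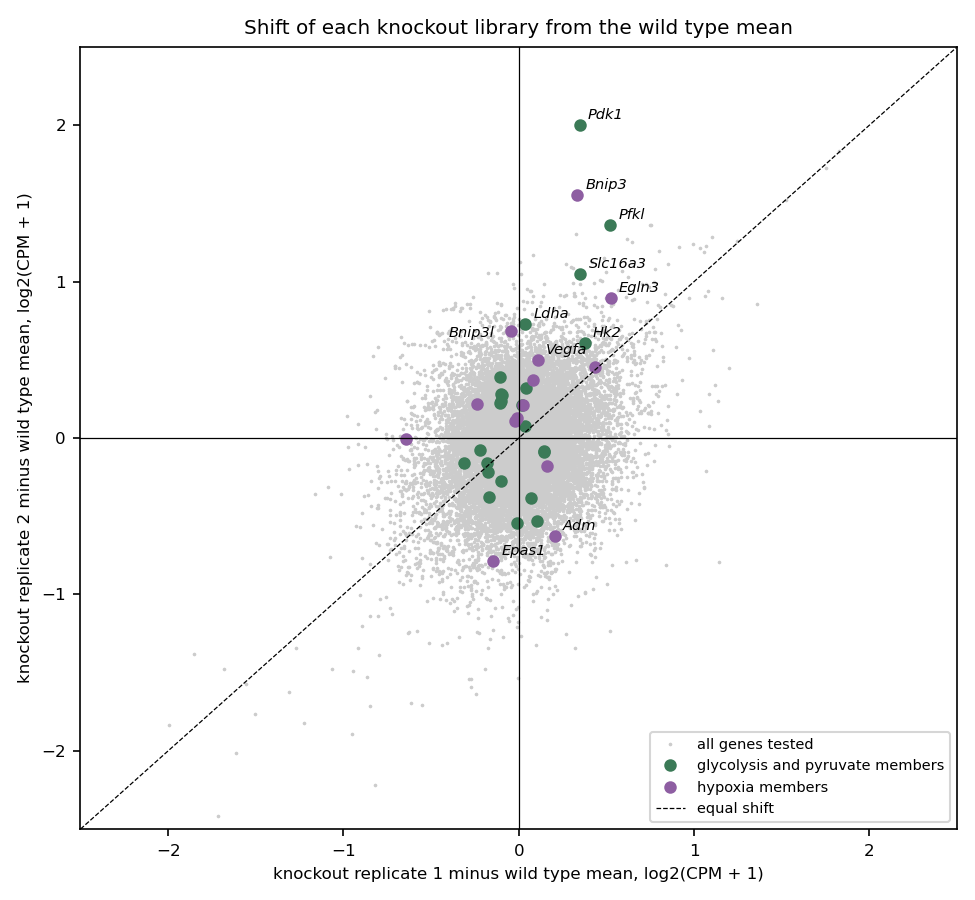
Difference from the wild type mean in log2(CPM + 1), knockout replicate 1 on the horizontal and knockout replicate 2 on the vertical axis. Grey points are all genes tested, coloured points the 38 tested members, and the dashed line marks equal shifts. Pdk1 lies at 0.35 and 2.00 and Bnip3 at 0.33 and 1.55, well above the dashed line, while Egln3 lies at 0.52 and 0.89.

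A count of members that stood apart in a single library was made with a threshold chosen after the values were seen. Knockout replicate 2 was at least 1.5 times the highest of the other 3 libraries in 6 of 38 members, Pfkl, Ldha, Pdk1, Slc16a3, Bnip3 and Bnip3l, where 1.24% of all genes tested met that rule. Bnip3l was the member just inside the rule, at 1.56 times, and Vegfa the one just outside, at 1.33 times. Knockout replicate 1, wild type replicate 1 and wild type replicate 2 met the same rule in 0 members each, where 0.994%, 1.86% and 1.28% of all genes tested did. In the other direction knockout replicate 2 was at most 1/1.5 of the lowest of the other libraries in 2 members, Eno2 and Epas1, where 4.62% of all genes tested were. Knockout replicate 1 met that rule in 1 member, Ankrd37, wild type replicate 1 in 0 and wild type replicate 2 in 1, P4ha2, where 1.5%, 2.74% and 2.3% of all genes tested did. Knockout replicate 2 was also the library with the highest share of mitochondrial reads, 2.12%, and with the lowest TMM factor, 0.948. Wild type replicate 2 came next in both, at 1.91% and 0.973. The part of mitochondrial reads and TMM factors in the members' values was not tested. Scaled to library totals alone, without TMM factors, the median shift of the members was 0.08 in knockout replicate 1 and 0.13 in knockout replicate 2, where all genes tested shifted by 0.06 and -0.09.

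Leaving out 1 library at a time, with the lone library of a group assumed to vary like the others, changed the calls. Without knockout replicate 1, 3 members were called, Pdk1, Bnip3 and Pfkl, where 0.236% of all genes tested were called. Without wild type replicate 1, the library with Y-linked reads, Pdk1 and Pfkl were called, where 0.156% of all genes were, and without wild type replicate 2 Pdk1 was called, where 0.0854% were. Without knockout replicate 2, 0 members were called, where 0.00502% of all genes were, which is 1 gene, and the log2 fold changes were 0.37 ± 0.30 for Pdk1, 0.36 ± 0.27 for Bnip3, 0.41 ± 0.34 for Slc16a3 and 0.04 ± 0.20 for Ldha (SE). Hk2 was then at 0.39 ± 0.28, and Egln3 and Pfkl, at 0.55 ± 0.26 and 0.53 ± 0.25 (SE), had the largest log2 fold changes of the 6 members under an unadjusted p of 0.05. Bnip3l was then at -0.04, on the other side of zero. With all libraries kept, 2 members, Bnip3 and Pfkl, were called without the low-count filter, where 0.124% of all genes were. With the replicate number as a block 0 members were called, with that block and removal of the GC trend 1 member, Egln3, and with DESeq2 0 members, where 0.0452%, 0.221% and 0.0301% of all genes were called. Limma-voom called 0 members and 0.00502% of all genes.

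Wider lists of the same pathways, drawn from textbook membership but also with earlier results of these data known, hold genes beyond the 40. Of 47 other genes of glycolysis and pyruvate handling, 40 were tested, 18 lay above and 22 below zero in log2 fold change, and 0 were called. Pdk2, a kinase of pyruvate dehydrogenase related to Pdk1, was the 1 gene with an unadjusted p under 0.05, at 2.80 and 2.85 CPM in the knockout libraries, against 4.45 and 4.57 CPM in the wild type libraries. Pdk2 was lower in both knockout libraries and Pdk1 higher in both. Of 53 other hypoxia genes, 46 were tested, 24 lay above and 22 below zero in log2 fold change, and 0 were called. Loxl2, a lysyl oxidase of the matrix, was at 7.76 and 7.66 CPM in the knockout libraries, against 4.23 and 3.41 CPM in the wild type libraries, with nearly equal knockout libraries and a log2 fold change of 1.02 ± 0.26 (SE; edgeR, unadjusted p = 0.0030). Narf was at 35.0 and 50.7 CPM in the knockout libraries, against 24.6 and 29.1 CPM in the wild type libraries. Median shifts from the wild type mean in knockout replicates 1 and 2 were -0.04 and -0.02 over the 40 glycolysis genes. Over the 46 hypoxia genes they were 0.02 and 0.01. Knockout replicate 2 exceeded knockout replicate 1 in 45.0% of the 40 and 45.7% of the 46, against 46.8% of all genes tested. The rule of 1.5 times every other library was met in knockout replicate 2 by 0 of the 40 glycolysis genes and by 2 of the 46 hypoxia genes. These were Plod2, a collagen lysine hydroxylase, at 56.4 and 92.3 CPM in the knockout libraries, against 55.4 and 54.9 CPM in the wild type libraries, and Ccng2, at 34.8 and 53.1 CPM in the knockout, against 30.1 and 35.1 CPM in the wild type.

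Other cell types also express some members, and a smaller number of such cells cannot be told apart from less RNA per cell in these bulk libraries. Endothelial markers, of interest for Slc2a1, summed to 2.74 and 2.46 CPM in the knockout libraries, against 2.34 and 3.35 CPM in the wild type libraries, with 5 of 5 under 2 CPM in every library. Red blood cell markers, of interest for Bnip3l, summed to 10.7 and 10.8 CPM in the knockout, against 11.5 and 8.48 CPM in the wild type. Astrocyte markers, among them the member Aldoc, summed to 547 and 455 CPM in the knockout, against 409 and 501 CPM in the wild type. Neuronal markers summed to 1137 and 1358 CPM in the knockout, against 1023 and 1298 CPM in the wild type, nearly all of it Map2, and their part in the values of Eno2 and Slc2a3 was not tested. Microglial markers summed to 5.91 and 4.82 CPM in the knockout, against 6.34 and 4.57 CPM in the wild type, and oligodendrocyte lineage markers to 1410 and 1376 CPM in the knockout, against 1381 and 1259 CPM in the wild type. Mesenchymal and mural markers summed to 3.32 and 2.19 CPM in the knockout, against 7.47 and 4.69 CPM in the wild type. No marker of any of these lists was called. Of 38 tested markers, 4 had an unadjusted p under 0.05 in the same fit, where 2.77% of all genes did. Aldh1l1, an astrocyte and radial glia enzyme, was at 247 and 198 CPM in the knockout libraries, against 110.3 and 158 CPM in the wild type libraries (log2 fold change 0.73; edgeR, unadjusted p = 0.0037). Sox10, a factor of the oligodendrocyte lineage, was at 3.22 and 2.52 CPM in the knockout, against 0.528 and 1.34 CPM in the wild type (log2 fold change 1.57; edgeR, unadjusted p = 0.0057), and all 6 markers of its list had log2 fold changes above zero. Acta2, the smooth muscle actin, was at 2.59 and 1.81 CPM in the knockout, against 6.64 and 3.66 CPM in the wild type (log2 fold change -1.21; edgeR, unadjusted p = 0.0078). The last of the 4 was the globin gene Hba-a2, at a log2 fold change of 1.38 (edgeR, unadjusted p = 0.044). Gfap and S100b, the other way from Aldh1l1 in the astrocyte list, had log2 fold changes of -0.86 and -0.74. In Aldh1l1, Sox10 and Acta2 knockout replicate 2 was lower than knockout replicate 1, and the part of these markers in the members' values was not tested.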

How the data were processed

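RNA sequencing counts of 2 Mettl4 knockout and 2 wild type libraries were used. The authors deposited raw counts of reads for each gene. STAR 2.7.10, featureCounts and build GRCm39 are named per the submitters' processing notes. The handling of strand and of multiply mapped reads was not given in the sources used here. Symbols and lengths came from a GENCODE annotation of GRCm38, which matched 52081 of 55414 identifiers. Aldoa has 2 identifiers there, and the longer was used.

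Genes passing edgeR's filterByExpr (minimum count 10) were tested in edgeR 4.0.16 (R 4.3.3) with TMM factors and the quasi-likelihood F test (robust), with Benjamini-Hochberg adjustment over all 19912 genes. The biological coefficient of variation was 16.5%. On simulated data from these libraries the test recovered 52.0% of genes changed 2-fold and 93.3% of genes changed 4-fold. The simulation changed 200 genes in each of 3 runs and used the trended dispersion, without the added scatter of single genes. In the real libraries only 1 gene was called. The recovered shares may therefore overstate what this comparison could detect. The knockout libraries, and likewise the wild type libraries, differed by more than sampling noise. The SE of a log2 fold change was derived as its absolute value divided by the square root of the edgeR F statistic. Intervals of fold changes used that SE with the t distribution and include the spread between libraries. The limit for a count of 0 covers counting error only. Near-identical copies were found with blastn 2.17.0. Full values are given for Mettl4, members with an unadjusted p under 0.05, the 2 members with the smallest p in each role and 9 others chosen by role. From the wider lists, genes with an unadjusted p under 0.05 are named, and Plod2 and Ccng2 after their values were seen. Alternatives were other scalings, filters and tools, a replicate block, GC correction and leaving out each library. Members and lists were chosen with earlier results of these data known.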

Additional observations from a re-analysis of the deposited data

How the results depend on the processing

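Over 16 alternatives, 569 of 607 member values had the same direction and no call, 9 were called, and 29 had the opposite sign. Genes called over all genes numbered 1 in the reported fit, 41 without the low-count filter, 6 with DESeq2, 9 with the replicate block and 44 with the replicate block and GC correction together. Members called numbered 0 in the reported fit and 2 without the filter (Bnip3 and Pfkl), 1 with the block and GC correction together (Egln3) and 0 with the block alone. Leaving out 1 library gave between 1 and 47 genes called, between 0 and 3 members called, a glycolysis median between -0.0030 and 0.15 and a hypoxia median between 0.051 and 0.22. The 2 libraries of a replicate number share only a number, and the correlation of their deviations was 0.23, from 2 pairs. P4ha1 turned to -0.016 with library totals and -0.016 with block and GC correction together, -0.013 with limma-voom, -0.0073 with the block and -0.0067 with GC correction. Egln1 turned to 0.028 with GC correction, with and without the block. Leaving out 1 library turned the sign, with these ranges of the log2 fold change: Adm -0.77 to 0.21, Bnip3l -0.044 to 0.69, Egln1 -0.19 to 0.21, Eno1 -0.11 to 0.22, Eno2 -0.73 to 0.14, Gapdh -0.092 to 0.27, Gpi1 -0.083 to 0.14, Hif1a -0.0091 to 0.13, Hk1 -0.40 to 0.072, Mxi1 -0.024 to 0.12, P4ha1 -0.24 to 0.22, Pfkfb4 -0.12 to 0.18, Pgk1 -0.11 to 0.39, Slc2a1 -0.14 to 0.31, Slc2a3 -0.0033 to 0.14 and Tpi1 -0.10 to 0.29. The cause of these changes was not tested. With 2 libraries a group the simulated test recovered 6.67% of genes changed 1.5-fold, so differences of that size were rarely detectable here.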

Other observations

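A ranking made after the values were seen placed the members among all genes. Of 10122 tested genes with at least 10 CPM in knockout replicate 2, ordered by the ratio of that library to the highest of the other 3, Pdk1 came first at 3.32 times and Bnip3 next at 2.41 times. Pfkl ranked 6, Slc16a3 ranked 9, Ldha ranked 15 and Bnip3l ranked 22, and Plod2 from the wider hypoxia list ranked 14. The first 30 of the 10122 genes thus held 6 of the 31 members ranked. The ranking used the same values as the rule of 1.5 times every other library and adds no support to it. Slc16a3 passed the limit of 10 CPM only through knockout replicate 2, at 10.9 CPM. It was at 6.38 CPM in knockout replicate 1 and at 5.28 and 4.33 CPM in the wild type libraries. The same ordering for knockout replicate 1, wild type replicate 1 and wild type replicate 2 held 0 members among its first 30 genes.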
